A study of Homo sapiens with 9 samples.

Results

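The matrix metalloproteases (MMP), the ADAM and ADAMTS proteases, the ADAMTS-like proteins and the tissue inhibitors of metalloproteases (TIMP) were examined in triple negative breast cancer cells with and without oestrogen receptor beta 1. Members were the genes of the deposited log2 table of CPM, the counts of a gene scaled to the size of its library, whose symbols carry one of these family names with a number, and the rule gave 49 of 18934 genes. They were 15 MMP, 13 ADAM, 13 ADAMTS, 4 ADAMTSL and 4 TIMP genes, all annotated as protein coding. The larger table of estimated counts listed 79 genes with such names among 60240. The 30 outside the log2 table held at most 12 counts in any library, led by MMP10 with 46 counts over all 9 libraries, while ADAMTS20, among the lowest members inside it, held 23.

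The cells were read as MDA-MB-231, an established human cell line of basal type derived from breast cancer. The label gives that name for the first control library and counts upward to MDA-MB-239 over the others, and 1 line was assumed for all 9. A lentiviral vector with doxycycline-inducible expression encoded GFP and luciferase in the control cells. In the ERβ1 cells it also encoded oestrogen receptor beta 1. The data columns name the control group WT, and they were matched to the control cells through the sample titles. All 3 groups received 100 ng/ml doxycycline for 3 days, and in 1 group the ERβ1 cells were in addition treated with CLI, a receptor ligand, for 24 h. Each group held 3 libraries of messenger RNA. The series set out to ask how the receptor, with and without ligand, affects gene expression, growth and metastasis. No control cells received CLI, so an action of CLI without the receptor cannot be told apart from one that needs it. Whether each line was a clone or a pool, the dose of CLI and the independence of the replicates are not stated in the labels, so the p-values measure the spread between these libraries, which may be technical.

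MMPs are zinc-dependent enzymes that cut collagens, laminins and other matrix proteins. They are made with a prodomain that must be removed, and many are secreted while the membrane-type MMPs stay on the cell surface. ADAMs sit in the membrane and release the outer parts of growth factors, receptors and adhesion proteins, a step called shedding. ADAMTS enzymes are secreted and cut proteoglycans and procollagens, ADAMTSL proteins share their layout without the protease domain, and TIMPs block the zinc site of the enzymes. In breast cancer the families are known for their part in invasion through basement membrane and stroma. RNA levels, which are all that was measured, do not give the amount of active enzyme.

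The libraries held 39902456 to 55387538 estimated counts, of which 144734 to 198047 fell on the 49 members. ESR2, which encodes the receptor, stood at 0.132, 0.140 and 0.140 CPM in the control libraries, 118, 115 and 118 in the ERβ1 libraries and 82.6, 87.7 and 82.2 with CLI. Every receptor library lay far above the controls. ESR2 fell at the CLI step by 0.48 log2 units (edgeR adjusted p = 3.63e-04), and the part of this lower receptor level in the results with CLI was not tested. All 6 genes listed as markers of MDA-MB-231, among them VIM and CD44, were at 1 CPM or more. They summed to 8287 to 8731 CPM per library in control, 7233 to 7455 in ERβ1 cells and 7005 to 7429 with CLI, and by edgeR 3 of 6 fell in ERβ1 cells. The listed markers of luminal epithelium summed to 25.8 to 30.3 CPM per library in control, 21.4 to 23.5 in ERβ1 cells and 21.4 to 23.6 with CLI, and of 5 tested 1 rose, CDH1 from 0.120 to 1.33 CPM in ERβ1 cells, and 2 fell. Those of fibroblasts summed to 22.8 to 30.8 CPM per library in control, 26.2 to 36.3 in ERβ1 cells and 27.5 to 40.6 with CLI, with 2 of 4 tested higher in ERβ1 cells. Those of leukocytes summed to 5.02 to 6.27 CPM per library in control, 6.14 to 10.6 in ERβ1 cells and 7.46 to 11.3 with CLI, with 1 of 3 higher. Those of endothelium summed to 0.769 to 0.957 CPM per library in control, 1.42 to 1.89 in ERβ1 cells and 1.82 to 2.27 with CLI, with 2 of 3 higher. No listed marker was at 0 in all libraries, and the part of these shifts in the results below was not tested. The libraries numbered 2 of both receptor groups stood apart from their groups. The chi-square per gene between replicates was 20.0 to 21.8 where library 2 was one of the pair and 11.3 to 13.5 where it was not, against 10.9 to 13.4 among the controls.

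The catalytic site that gives the families their name is written in the coding sequence, and it is shown for 10 of the members on which the results turn because it separates the enzymes from the ADAMTSL and TIMP members. The stretches are 33 bases long, read 5′ to 3′ on the coding strand from GENCODE release 29 (GRCh38). The capitals mark the codons of the 3 zinc-binding histidines, of the glutamate after the first of them and of the residue between the second and the third that is glycine in most members and asparagine in 3.
MMP1: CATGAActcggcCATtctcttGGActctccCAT
MMP3: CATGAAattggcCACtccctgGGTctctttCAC
MMP12: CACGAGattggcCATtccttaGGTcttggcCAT
MMP14: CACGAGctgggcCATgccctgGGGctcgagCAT
ADAM12: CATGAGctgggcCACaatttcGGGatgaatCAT
ADAM19: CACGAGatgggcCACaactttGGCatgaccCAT
ADAMTS1: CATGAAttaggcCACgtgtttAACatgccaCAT
ADAMTS15: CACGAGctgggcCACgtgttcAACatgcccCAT
ADAMTS9: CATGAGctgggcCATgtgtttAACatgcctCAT
ADAMTS12: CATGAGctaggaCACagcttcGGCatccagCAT
The MMP1 stretch lies in an exon at chr11:102795549-102795581 on the minus strand and that of MMP14 at chr14:22843283-22843315 on the plus strand. A site with glycine was found in 33 of the 49 members, in 15 of 15 MMP, 9 of 13 ADAM and 9 of 13 ADAMTS genes. The form with asparagine was found in ADAMTS1, ADAMTS9 and ADAMTS15. Their stretches are each split by an intron, as are those of the 9 ADAMTS genes with glycine and of ADAM10. Neither form was found in ADAM11, ADAM22, ADAM23 and ADAM32, in ADAMTS8, or in the 4 ADAMTSL and 4 TIMP members. Only glycine and asparagine were sought at that position. A site with another residue there would have been missed, so the lack of a match in ADAMTS8 does not make it inactive.

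Levels spanned several orders of magnitude. By CPM, 10 members had a group mean of at least 100, 21 of at least 10, and 36 of the tested members of at least 1. Levels per kilobase were divided by all annotated exon of a gene, not by the transcript expressed, so they compare genes only roughly. Per kilobase of annotated exon, MMP1 (157 CPM per kb), TIMP2 (137), MMP14 (131) and TIMP1 (115) led in the control cells. They were followed by ADAM9 (48.9), TIMP3 (34.1), ADAM8 (32.9), ADAM15 (26.9) and ADAMTS12 (20.5 CPM per kb). The gelatinase genes MMP2 and MMP9 were near the bottom of the range, at 0.0393 and 0.111 CPM per kb. The 3 members that did not pass the filter on low counts, ADAM21, ADAMTS8 and ADAMTS20, held 20, 10 and 13 counts over the control libraries.

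**Figure D1:**
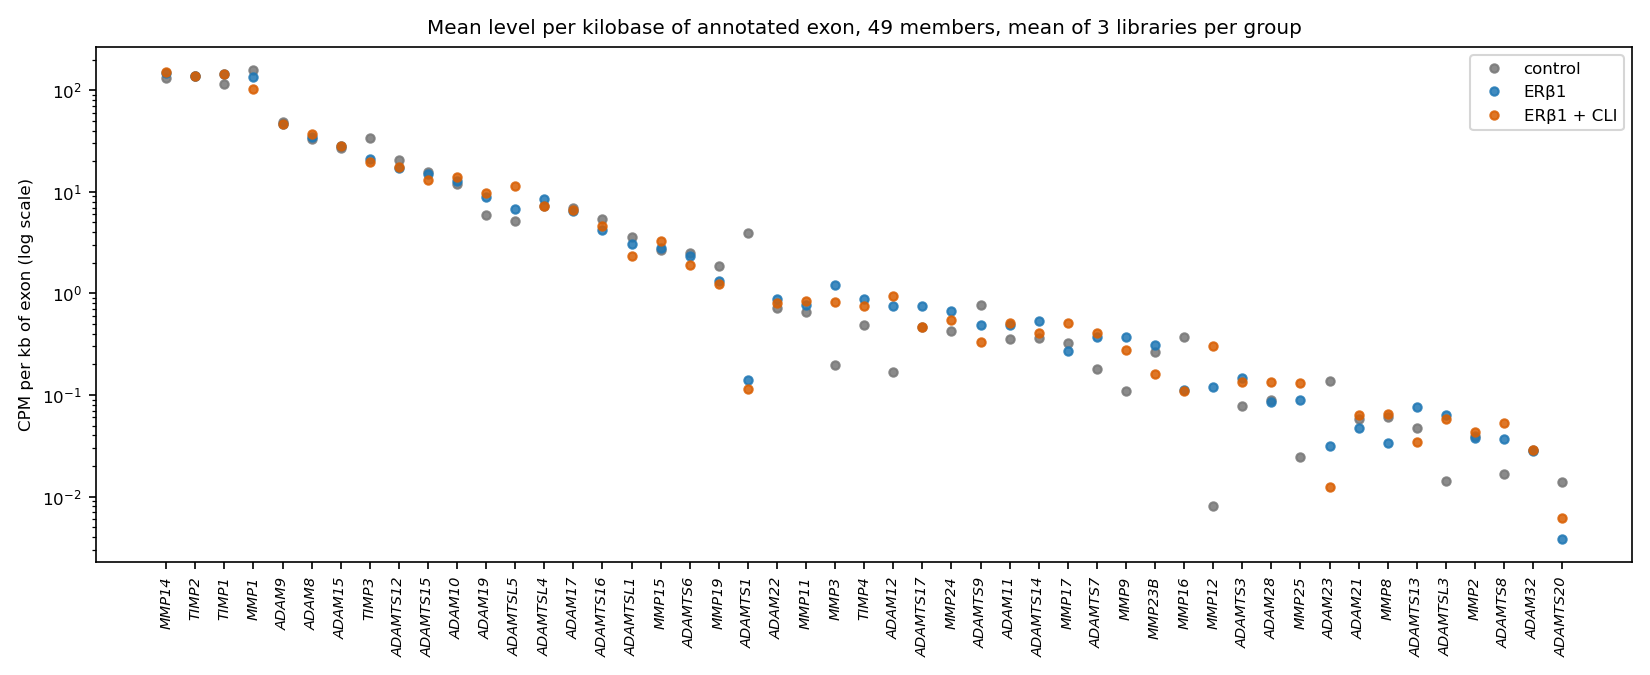
Mean level of the 49 members in CPM per kilobase of annotated exon, on a log axis, with 1 point per group (3 libraries each). Members are ordered by their mean over the groups; ADAMTS1 stands at 3.91 in control cells and 0.141 in ERβ1 cells, while the points of TIMP2 lie on top of each other.

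The first comparison asked how the unliganded receptor changes these genes. In ERβ1 cells against control cells, 14 of 46 tested members rose and 6 fell by edgeR's quasi-likelihood test at an adjusted p under 0.05. The members called made up 43.5% of those tested, where 21.4% of all 17058 genes tested were called. Members called higher were 14 of 46 and members called lower 6 of 46, beside 10.7% of all genes for either direction. The largest fall and the largest rise sat in genes of low or middling level: ADAMTS1 fell 27.8-fold, and MMP12 rose from 2 counts over 3 libraries to 34. Among the members with the highest levels MMP1 and TIMP3 fell and MMP14 and TIMP1 rose, each by less than 2-fold. Of the 46 members, 8 were called with a change of at least 2-fold, beside 3.67% of all genes. Without the libraries numbered 2 of the receptor groups, 20 members were again called: ADAMTS3, ADAMTS14 and ADAMTSL1 were lost, and ADAMTS9, ADAMTS17 and ADAMTSL5 were gained. The libraries of the 2 groups did not overlap for 26 members, beside 39.6% of all genes. The median log2 fold change over the members was 0.09, against less than 0.01 from 0 over all genes. In bulk libraries such as these, fewer cells with a transcript and less RNA per cell cannot be told apart.

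The second comparison asked what CLI added in cells that already made the receptor. Here 3 of 46 members fell and 0 rose by edgeR, 6.52% of the members, where 1.47% of all genes were called. The 3 were MMP1, ADAMTSL1 and ADAMTS15, each with a change of less than 1.5-fold. Of all genes, 1.04% rose and 0.428% fell. No member reached a called change of 2-fold, beside 0.252% of all genes. The groups did not overlap for 20 members, beside 18.8% of all genes. With the replicate number as a block, which treats libraries of the same number as pairs, 2 members and 136 genes were called in place of 3 and 251. The labels state no such pairing, and only the libraries numbered 2 correlated best with their own number on both sets of genes examined. Without any one of the 6 libraries compared 114 to 153 genes were called, and 2 or 3 members. When the libraries numbered 2 were left out of both receptor groups, a choice made after the data were seen, 1 member, MMP1, and 72 genes were called. The values of ADAMTS15 and ADAMTSL1 were then -0.18 and -0.42 in log2 units (edgeR adjusted p = 0.174 and 0.0671).

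The third comparison, CLI-treated ERβ1 cells against control cells, shares its controls with the first and its treated libraries with the second, so its calls are not separate evidence. By edgeR, 15 of 46 members rose and 10 fell, beside 13.3% and 13.1% of all genes. The members called were 54.3% of those tested, where 26.5% of all genes were called. A called change of at least 2-fold was seen in 12 members, beside 4.77% of all genes, and the groups did not overlap for 28, beside 41.7% of all genes. The median log2 fold change over the members was 0.13. Without the libraries numbered 2 of the receptor groups 20 members were called, and ADAM23, ADAMTS3, MMP9, MMP25 and TIMP4 were not. Over the 3 comparisons 28 members were called at least once and 18 in none.

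**Figure D2:**
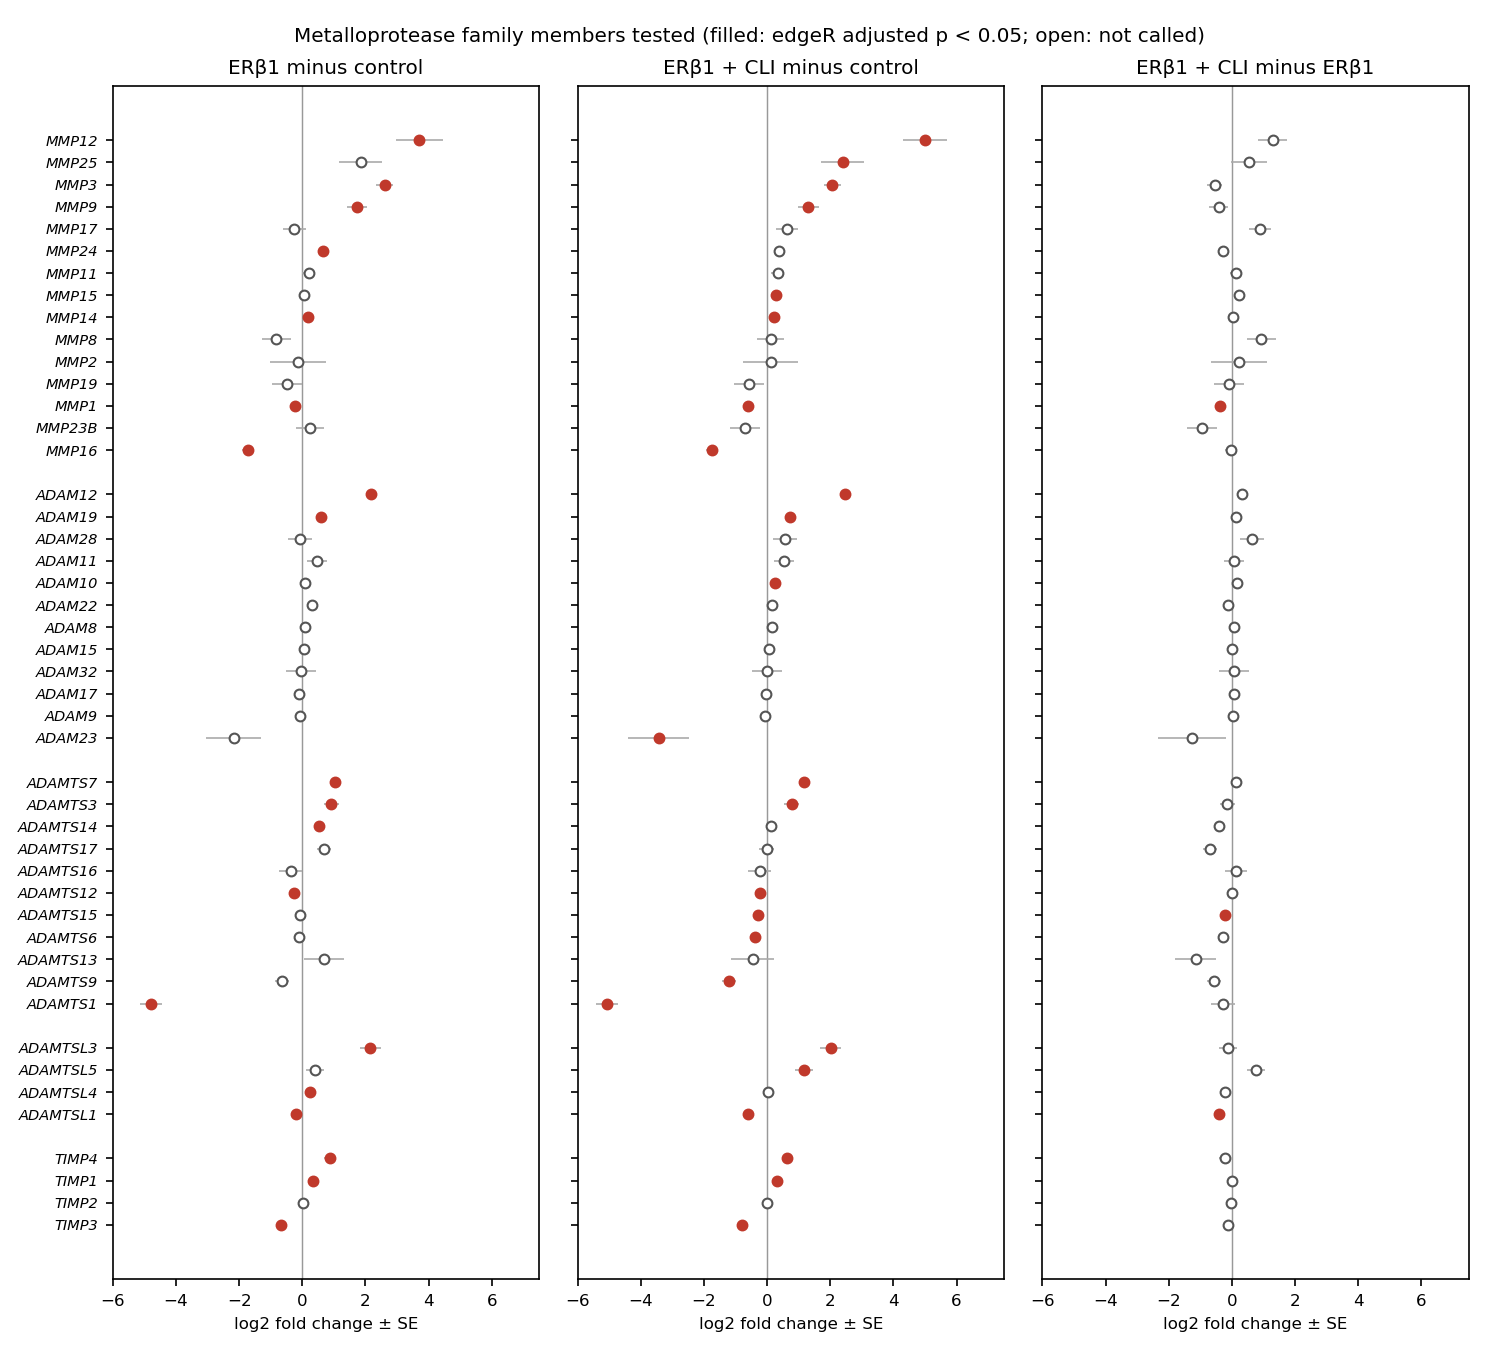
Log2 fold change with its standard error (SE) for the 46 members tested, in a panel for each of the 3 comparisons, grouped by family and ordered within it by the value against control with CLI. Filled points passed an edgeR adjusted p of 0.05; the right panel holds 3 of them, MMP1, ADAMTS15 and ADAMTSL1, all below 0.

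MMP1, the interstitial collagenase, fell at each step. Its level was 315, 311 and 300.1 CPM in the control libraries, 264, 271 and 261 in the ERβ1 libraries and 197, 215 and 198 with CLI. The 3 groups did not overlap, with the controls highest and the CLI libraries lowest. The log2 fold change was -0.22 ± 0.04 (SE) for ERβ1 against control (edgeR adjusted p = 0.00571), and the group mean passed from 309 ± 7.82 to 265 ± 5.22 CPM (mean ± SD over 3 libraries, also below). With CLI it was -0.38 ± 0.04 against ERβ1 cells (edgeR adjusted p = 0.00263) and -0.60 ± 0.04 against control (edgeR adjusted p = 1.50e-05). With the replicate number as a block, the adjusted p of the CLI step was 0.00742 by edgeR, and 0.0346 with only the 6 libraries compared. MMP1 kept its call in all 3 comparisons under each alternative run.

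MMP1 lies on chromosome 11 at chr11:102789920-102798160 beside MMP3 at chr11:102835801-102843803, MMP12 at chr11:102862736-102875034 and MMP8 at chr11:102711795-102727050, and these neighbours did not move together. MMP3, stromelysin 1, which cuts laminin, fibronectin and proteoglycans and can activate proMMP1, was at 0.550, 0.303 and 0.349 CPM in the control libraries, 2.27, 1.98 and 3.18 in the ERβ1 libraries and 1.65, 1.86 and 1.56 with CLI. Every receptor library lay above every control, and the CLI libraries lay below the ERβ1 libraries. MMP3 rose 6.10-fold in ERβ1 cells or 2.61 ± 0.27 in log2 units (edgeR adjusted p = 2.45e-04), and 4.18-fold with CLI against control (edgeR adjusted p = 6.44e-04). The CLI step itself, -0.55 ± 0.24, was not called (edgeR adjusted p = 0.385). MMP12, the macrophage elastase, held 2, 34 and 80 counts over the 3 libraries of the groups. It rose in ERβ1 cells (edgeR adjusted p = 0.00772) and with CLI against control (edgeR adjusted p = 8.24e-04). The ratio of counts, scaled for depth, was 15.9 (95% exact interval 4.08 to 137) for ERβ1 and 37.9 (10.1 to 318) with CLI, intervals that cover counting error only. Without ERβ1 replicate 2 the fitted log2 value of MMP12 in ERβ1 cells was 3.12 in place of 3.71. MMP8, the neutrophil collagenase, held 27, 16 and 31 counts and was not called in any comparison.

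WTAPP1, a pseudogene on the opposite strand, shares exon sequence with MMP1 and MMP3. It held 3, 57 and 42 counts and rose in ERβ1 cells by 4.01 log2 units (edgeR adjusted p = 0.00254). The kit marks strand, but whether the counting used it is not stated, so reads of MMP3 and WTAPP1 cannot be told apart where they overlap. MMP3 held 338 counts in the ERβ1 libraries, more than WTAPP1.

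The gelatinases were scarce. MMP9 was at 0.308, 0.327 and 0.140 CPM in the control libraries, 0.824, 0.731 and 1.04 in the ERβ1 libraries and 0.580, 0.723 and 0.632 with CLI. The receptor libraries were all above the controls. MMP9 rose 3.31-fold in ERβ1 cells (log2 1.73 ± 0.32, edgeR adjusted p = 0.00579) and 2.48-fold with CLI against control (edgeR adjusted p = 0.0172). The call with CLI was lost without CLI replicate 2 (edgeR adjusted p = 0.0519). MMP2 held 26, 24 and 29 counts over the groups and was not called. MMP11, stromelysin 3, averaged 3.42 ± 0.875, 3.94 ± 0.561 and 4.31 ± 0.681 CPM and was not called either.

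Of the 6 membrane-type MMPs, 2 rose and 1 fell in ERβ1 cells, where 21.4% of all genes were called, and 3 rose and 1 fell with CLI against control, where 26.5% were. MMP14, the membrane-type MMP that cuts collagen on the cell surface and activates proMMP2, was the member with the second highest CPM after TIMP2. It was at 602, 578 and 575 CPM in the control libraries, 649, 646 and 690.1 in the ERβ1 libraries and 721, 641 and 663 with CLI. The controls lay below all receptor libraries, and the receptor groups overlapped. The log2 fold change was 0.18 ± 0.05 in ERβ1 cells (edgeR adjusted p = 0.0264) and 0.21 ± 0.05 with CLI against control (edgeR adjusted p = 0.0114). The first of these calls was lost without control replicate 2, control replicate 3 or ERβ1 replicate 3, with edgeR adjusted p of 0.0712, 0.0683 and 0.0765.

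MMP16, another membrane-type MMP, was at 5.06, 3.85 and 4.57 CPM in the control libraries, 1.65, 1.09 and 1.37 in the ERβ1 libraries and 1.37, 1.23 and 1.38 with CLI. All receptor libraries lay well under the controls, and those with and without CLI overlapped. MMP16 fell by 1.72 log2 units in ERβ1 cells (edgeR adjusted p = 2.47e-04), or 3.29-fold, and by 1.76 with CLI against control (edgeR adjusted p = 1.49e-04). MMP24 went from 1.86 ± 0.213 to 2.94 ± 0.204 CPM in ERβ1 cells, a rise of 0.66 log2 units (edgeR adjusted p = 0.00756). With CLI it was at 2.42 ± 0.124 CPM and not called against control (edgeR adjusted p = 0.0611). The CLI step of MMP24, -0.28, was not called either (edgeR adjusted p = 0.417). MMP24OS, which overlaps MMP24 on the opposite strand, was at 113 CPM, far above MMP24 itself, and was not called. MMP15 rose slightly with CLI against control, from 11.8 ± 0.170 to 14.4 ± 0.429 CPM (log2 0.29 ± 0.07, edgeR adjusted p = 0.0118). Its CLI step, 0.22, was not called (edgeR adjusted p = 0.190).

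MMP25, which is held to the membrane by a lipid anchor, held 13, 52 and 74 counts. It rose with CLI against control (log2 2.39 ± 0.67, edgeR adjusted p = 0.0286). Without control replicate 1 the value was 1.81 and without control replicate 3 it was 3.48. The call was lost without control replicate 2 or any one of the CLI replicates 1, 2 and 3 (edgeR adjusted p = 0.0919, 0.0755, 0.0572 and 0.0709). It was also lost with only the 6 libraries compared and with the replicate block (edgeR adjusted p = 0.0502 and 0.0539). The CLI step of MMP25, 0.54, was not called (edgeR adjusted p = 0.782). MMP25-AS1, which overlaps its exons on the opposite strand, rose too, from 1.53 to 4.26 CPM with CLI (log2 1.47, edgeR adjusted p = 0.00624), and the reads of the pair cannot be told apart without strand. MMP17, likewise anchored by a lipid, averaged 1.30 ± 0.0589, 1.09 ± 0.263 and 2.03 ± 1.11 CPM and was not called. MMP19 was set apart by 1 library: it was at 17.1, 3.80 and 5.03 CPM in the control libraries against 5.47 to 6.50 in the receptor libraries. Its log2 value in ERβ1 cells was -0.49 with all libraries and 0.49 without control replicate 1, neither of which was called. MMP23B held 79, 99 and 50 counts and was not called.

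**Figure D3:**
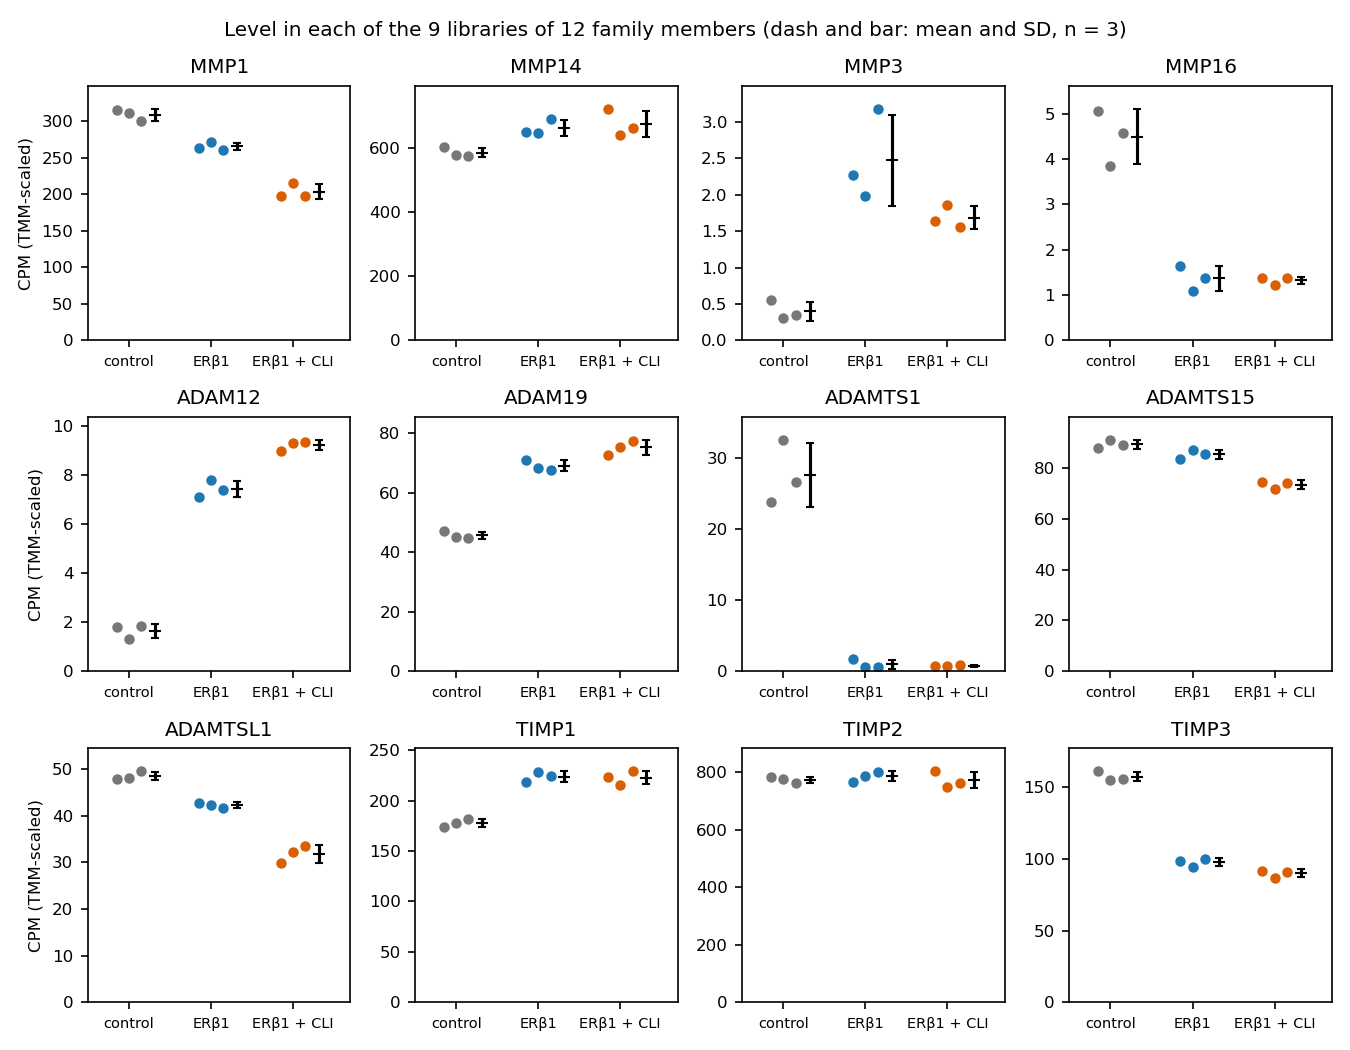
Level in CPM, scaled by TMM, of 12 members in each of the 9 libraries, with the mean and SD of 3 libraries beside the points; each panel has its own axis from 0. MMP1 and ADAMTSL1 step down from group to group, TIMP1 stands at 178 CPM in control and 224 in ERβ1 cells, and TIMP2 overlaps in all groups.

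Among the ADAMs with the zinc site shown above, 2 of 8 tested rose in ERβ1 cells and 0 fell, a share near the 21.4% of all genes called, and 3 rose and 0 fell with CLI against control, beside 26.5% of all genes. ADAM12, or meltrin alpha, which can shed ligands of the EGF receptor, was at 1.80, 1.33 and 1.84 CPM in the control libraries, 7.12, 7.78 and 7.40 in the ERβ1 libraries and 8.99, 9.32 and 9.35 with CLI. The 3 groups did not overlap, with the controls lowest and the CLI libraries highest. The rise was 4.48-fold in ERβ1 cells or 2.16 ± 0.12 in log2 units (edgeR adjusted p = 8.88e-06), and 5.55-fold with CLI against control (edgeR adjusted p = 2.74e-06). The CLI step, 0.31 ± 0.11, was not called (edgeR adjusted p = 0.291). ADAM19, or meltrin beta, its close relative, was at 47.1, 45.0 and 45.0 CPM in the control libraries, 71.2, 68.2 and 67.8 in the ERβ1 libraries and 72.7, 75.5 and 77.6 with CLI. Again the groups did not overlap. ADAM19 rose by 0.60 log2 units in ERβ1 cells (edgeR adjusted p = 2.36e-05) and by 0.72 with CLI against control (edgeR adjusted p = 4.93e-06). CYFIP2, whose exons overlap those of ADAM19 on the opposite strand, rose as well, from 7.73 to 13.3 CPM (log2 0.79, edgeR adjusted p = 0.00103).

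The main sheddases moved little. ADAM10, which cuts Notch receptors, N-cadherin and other surface proteins, was at 200.5, 186 and 191 CPM in the control libraries, 208, 199 and 206 in the ERβ1 libraries and 228, 229 and 223 with CLI. The libraries with CLI lay above all others. ADAM10 rose by 0.24 log2 units with CLI against control (edgeR adjusted p = 0.00146), and the CLI step of 0.15 ± 0.04 was not called (edgeR adjusted p = 0.100). ADAM17, the TNF-converting enzyme, averaged 74.0 ± 2.57, 68.8 ± 1.63 and 71.6 ± 1.30 CPM and was not called (edgeR adjusted p = 0.0896 for ERβ1 against control). The highest ADAMs that were not called were ADAM9, ADAM15 and ADAM8. ADAM9 averaged 338 ± 1.54, 319.6 ± 2.60 and 325 ± 12.3 CPM. ADAM15 averaged 177 ± 4.92, 185 ± 11.1 and 184 ± 8.48 CPM, and ADAM8 157 ± 9.46, 167 ± 4.13 and 176 ± 10.4 CPM. With CLI against control the value of ADAM8 was 0.16 (edgeR adjusted p = 0.0644). It was called with upper quartile scaling, a filter at 1 CPM and the replicate block (edgeR adjusted p = 0.0425, 0.0440 and 0.0234). DESeq2 called it too (DESeq2 adjusted p = 0.0353).

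Of the 4 ADAMs in which no zinc site was found, ADAM23 alone was called. ADAM23, like ADAM22 and ADAM11, binds secreted LGI proteins in neurons and has no protease activity. It held 115, 26 and 11 counts, and its control libraries were spread over 0.308, 0.420 and 1.93 CPM. It fell with CLI against control (log2 -3.43 ± 0.97, edgeR adjusted p = 0.0298). The value was -2.15 without control replicate 3 and -4.02 without CLI replicate 1. The call was lost without either of these or without CLI replicate 2 or 3, with edgeR adjusted p of 0.113, 0.0573, 0.0836 and 0.0963. The CLI step of ADAM23, -1.26, was not called (edgeR adjusted p = 0.707). ADAM22 averaged 8.69 ± 0.408, 10.7 ± 0.768 and 9.78 ± 1.35 CPM, and ADAM11 and ADAM32 averaged 1.70 and 0.286 CPM in control cells. ADAM28, in which a zinc site was found, averaged 0.842 CPM in control cells. None of these 4 was called.

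ADAMTS1 had the largest log2 change of the 46 tested members in ERβ1 cells. This enzyme cuts versican and aggrecan, and its gene lies on chromosome 21 at chr21:26835747-26845409. It was at 23.7, 32.5 and 26.5 CPM in the control libraries, 1.74, 0.660 and 0.596 in the ERβ1 libraries and 0.695, 0.801 and 0.948 with CLI. The receptor libraries lay far under the controls, ERβ1 replicate 1 the highest of them, and CLI made no separation. ADAMTS1 fell 27.8-fold in ERβ1 cells (log2 -4.80 ± 0.35, edgeR adjusted p = 3.35e-05) and 33.7-fold with CLI against control (edgeR adjusted p = 1.76e-05). Without ERβ1 replicate 1 the first log2 value was -5.44. ADAMTS5, its neighbour on the chromosome and outside the log2 table, held 12, 2 and 1 counts over the 3 groups.

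The other tested proteoglycan-cleaving ADAMTS members, ADAMTS15 and ADAMTS9, were also called lower with CLI against control, beside 13.1% of all genes. With ADAMTS1, they are the 3 members whose zinc site carries asparagine in the sequences above. ADAMTS15 was at 87.6, 90.8 and 89.0 CPM in the control libraries, 83.4, 86.9 and 85.4 in the ERβ1 libraries and 74.5, 71.5 and 74.1 with CLI. The CLI libraries were the lowest. ADAMTS15 fell by 0.22 log2 units at the CLI step (edgeR adjusted p = 0.0203) and by 0.28 against control (edgeR adjusted p = 4.62e-04). The call at the CLI step was lost with the replicate block and with only the 6 libraries compared (edgeR adjusted p = 0.0707 and 0.0690). It was also lost without ERβ1 replicates 1, 2 or 3 or CLI replicates 2 or 3 in turn (edgeR adjusted p = 0.0516 to 0.0909). ADAMTS9 averaged 8.13 ± 2.14, 5.19 ± 1.25 and 3.51 ± 0.0562 CPM. It fell with CLI against control (log2 -1.21 ± 0.21, edgeR adjusted p = 0.00309), while its value in ERβ1 cells, -0.64 ± 0.21, was not called (edgeR adjusted p = 0.0576). That value was called without control replicate 3 (-0.77, edgeR adjusted p = 0.0474) and without ERβ1 replicate 2 (-0.86, edgeR adjusted p = 0.0225). The CLI step of ADAMTS9, -0.57, was not called (edgeR adjusted p = 0.300).

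Both procollagen N-proteinases among the members were called higher in ERβ1 cells, beside 10.7% of all genes. Neither was called without the libraries numbered 2 of the receptor groups (edgeR adjusted p = 0.0938 for ADAMTS3 and 0.118 for ADAMTS14). ADAMTS3, which trims fibrillar procollagen and processes VEGF-C, went from 0.559 ± 0.165 to 1.06 ± 0.126 CPM (log2 0.92 ± 0.23, edgeR adjusted p = 0.0230). With CLI it was at 0.960 ± 0.0485 CPM, 0.78 ± 0.24 against control (edgeR adjusted p = 0.0382). The first call was lost without control replicate 1 or 3 or ERβ1 replicate 2 or 3 (edgeR adjusted p = 0.0690 to 0.0758). The second was lost without the same libraries or any of the CLI libraries (edgeR adjusted p = 0.0540 to 0.119). It was also lost with DESeq2 (DESeq2 adjusted p = 0.0584). Without a filter and with only the 6 libraries compared the edgeR adjusted p was 0.0855 and 0.0711. ADAMTS14 went from 1.94 ± 0.224 to 2.79 ± 0.261 CPM (log2 0.53 ± 0.15, edgeR adjusted p = 0.0367) and was at 2.13 ± 0.277 with CLI. The CLI step of ADAMTS14, -0.39, was not called (edgeR adjusted p = 0.310). Its call in ERβ1 cells was lost without control replicate 1 or 3, ERβ1 replicate 2 or 3 or CLI replicate 3 (edgeR adjusted p = 0.0519 to 0.111). Without a filter and with the replicate block the ADAMTS14 call was lost too (edgeR adjusted p = 0.0851 and 0.0684).

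ADAMTS7 and ADAMTS12, a related pair that cuts cartilage oligomeric matrix protein, moved in opposite directions. ADAMTS7 was at 1.21, 1.73 and 1.26 CPM in the control libraries, 2.84, 2.98 and 2.76 in the ERβ1 libraries and 2.90, 3.36 and 3.14 with CLI. It rose 2.04-fold in ERβ1 cells (log2 1.03 ± 0.16, edgeR adjusted p = 0.00203) and 2.24-fold with CLI against control (edgeR adjusted p = 7.64e-04). ADAMTS12, the ADAMTS member with the highest level per kilobase, was at 204, 206 and 191 CPM in the control libraries, 163, 175 and 165 in the ERβ1 libraries and 169, 173 and 168 with CLI. The controls lay above all receptor libraries, which overlapped each other. ADAMTS12 fell by 0.26 log2 units in ERβ1 cells (edgeR adjusted p = 0.00256) and by 0.24 with CLI against control (edgeR adjusted p = 0.00272). ADAMTS7P4, a pseudogene copy of ADAMTS7, held 39, 12 and 17 counts, against 183, 402 and 436 for ADAMTS7, so reads shared between the copies could shift the ADAMTS7 values.

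ADAMTS6 fell with CLI against control, from 21.2 ± 0.962 to 16.4 ± 0.461 CPM (log2 -0.37 ± 0.07, edgeR adjusted p = 0.00406). It was at 19.9 ± 1.45 CPM in ERβ1 cells and not called there. The CLI step of ADAMTS6, -0.28, was not called by edgeR (edgeR adjusted p = 0.100) but was by DESeq2 (DESeq2 adjusted p = 0.0203). ADAMTS16 was uneven within every group, at 27.4, 47.1 and 20.5 CPM in the control libraries, 25.1, 33.3 and 15.2 in the ERβ1 libraries and 21.5, 23.4 and 35.8 with CLI, and was not called. ADAMTS17 averaged 3.86 ± 0.377, 6.21 ± 2.13 and 3.81 ± 0.529 CPM. Its value in ERβ1 cells of 0.69 ± 0.23 was not called (edgeR adjusted p = 0.0647) but was called without ERβ1 replicate 2 (0.89, edgeR adjusted p = 0.0165). ADAMTS13, the protease of von Willebrand factor, held 35, 61 and 27 counts and was not called; without control replicate 3 its value in ERβ1 cells was 2.07 (edgeR adjusted p = 0.0184).

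The ADAMTS-like proteins have no protease domain, and some are known to bind fibrillin microfibrils. ADAMTSL1 was at 47.8, 48.1 and 49.5 CPM in the control libraries, 42.8, 42.3 and 41.7 in the ERβ1 libraries and 29.8, 32.1 and 33.4 with CLI. The 3 groups did not overlap and stepped down in that order, as for MMP1. ADAMTSL1 fell by 0.20 log2 units in ERβ1 cells (edgeR adjusted p = 0.0191), by 0.41 at the CLI step (edgeR adjusted p = 0.00406) and by 0.61 with CLI against control (edgeR adjusted p = 3.72e-05). The first call was lost without any one of the 6 libraries compared (edgeR adjusted p = 0.0510 to 0.0725) and without a filter (edgeR adjusted p = 0.0538). At the CLI step the replicate block gave an edgeR adjusted p of 0.0196, and 0.0963 with only the 6 libraries compared.

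ADAMTSL3 rose in ERβ1 cells from 0.137 ± 0.0470 to 0.617 ± 0.148 CPM (log2 2.15 ± 0.33, edgeR adjusted p = 0.00211). With CLI it was at 0.564 ± 0.0553 CPM and higher than in control cells as well (edgeR adjusted p = 0.00224). ADAMTSL4, which binds fibrillin-1, rose from 46.3 ± 1.67 to 54.9 ± 1.12 CPM in ERβ1 cells (log2 0.25 ± 0.06, edgeR adjusted p = 0.0165). With CLI it was at 47.1 ± 3.51 CPM. The CLI step of ADAMTSL4, -0.22, was not called by edgeR (edgeR adjusted p = 0.124) but was by DESeq2 (DESeq2 adjusted p = 0.0238). The ADAMTSL4 call in ERβ1 cells was lost without control replicate 1 or ERβ1 replicate 1, with edgeR adjusted p of 0.0574 and 0.0513. ADAMTSL5 was at 18.0, 21.2 and 16.6 CPM in the control libraries, 28.5, 15.5 and 29.6 in the ERβ1 libraries and 47.1, 27.7 and 50.6 with CLI. Library 2 was the lowest in both receptor groups. ADAMTSL5 rose 2.24-fold with CLI against control (log2 1.17 ± 0.28, edgeR adjusted p = 0.0147), a call lost without control replicate 1, control replicate 3 or CLI replicate 3 (edgeR adjusted p = 0.0517, 0.0533 and 0.0522). At the CLI step its value was 0.77 ± 0.28 and not called (edgeR adjusted p = 0.278), but the replicate block with only the 6 libraries compared called it (edgeR adjusted p = 0.0198). Without library 2 of either receptor group, its value in ERβ1 cells was 0.64 and called (edgeR adjusted p = 0.00662), in place of 0.40.

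The TIMPs shifted against each other in ERβ1 cells. TIMP1, a secreted inhibitor of most MMPs but a weak one of MMP14, was at 174, 177 and 182 CPM in the control libraries, 218, 229 and 224 in the ERβ1 libraries and 223, 216 and 229 with CLI. All receptor libraries lay above the controls, and CLI made no separation. TIMP1 rose by 0.33 log2 units in ERβ1 cells (edgeR adjusted p = 2.60e-04) and by 0.33 with CLI against control (edgeR adjusted p = 1.95e-04). TIMP3, which stays bound to the matrix and also inhibits ADAM17 and several ADAMTS enzymes, was at 161, 155 and 156 CPM in the control libraries, 98.4, 94.3 and 99.8 in the ERβ1 libraries and 91.8, 86.8 and 91.1 with CLI. Here the controls lay above all receptor libraries. TIMP3 fell by 0.69 log2 units in ERβ1 cells (edgeR adjusted p = 6.75e-06), or 1.61-fold, and by 0.81 with CLI against control (edgeR adjusted p = 1.67e-06). The CLI step of TIMP3, -0.12 ± 0.04, was not called (edgeR adjusted p = 0.220).

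TIMP2, which links MMP14 to proMMP2 on the cell surface, had the highest CPM of all members, at 782, 776 and 763 in the control libraries, 767, 786 and 801 in the ERβ1 libraries and 803, 749 and 763 with CLI. The groups overlapped throughout. The log2 values were 0.02 ± 0.03 in ERβ1 cells and -0.02 ± 0.03 at the CLI step, neither of them called (edgeR adjusted p = 0.698 and 0.831). TIMP4 was scarce. It was at 0.880, 0.747 and 0.769 CPM in the control libraries, 1.30, 1.52 and 1.56 in the ERβ1 libraries and 1.04, 1.33 and 1.35 with CLI, and rose in ERβ1 cells (log2 0.87 ± 0.18, edgeR adjusted p = 0.00896). With CLI it was also called against control (0.64 ± 0.18, edgeR adjusted p = 0.0289). That call was lost without control replicate 2 or 3 or CLI replicate 2 or 3 (edgeR adjusted p = 0.0740 to 0.0879). With DESeq2 it was lost as well (DESeq2 adjusted p = 0.0618). The same held without a filter, with only the 6 libraries compared and with the replicate block (edgeR adjusted p = 0.0906, 0.0598 and 0.0558).

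Summed per kilobase, the MMP members stood at 295 ± 8.36 CPM per kb in control cells, 291 ± 4.38 in ERβ1 cells and 263 ± 5.93 with CLI. MMP1 and MMP14 made up nearly all of it and changed places. MMP1 held 53.2 ± 0.576% of the sum in control cells, 46.3 ± 1.33% in ERβ1 cells and 39.3 ± 2.34% with CLI. MMP14 held 44.5 ± 0.363%, 50.9 ± 1.25% and 57.5 ± 2.51%. For both genes the shares of the 3 groups did not overlap. The TIMP members summed to 287 ± 0.454, 306 ± 5.71 and 302 ± 8.0 CPM per kb. The TIMP sum was close to the MMP sum in control cells and above it in every receptor library, with and without CLI. Within it the share of TIMP1 went from 40.1 ± 0.867% to 47.3 ± 0.563% in ERβ1 cells and that of TIMP3 from 11.9 ± 0.250% to 6.91 ± 0.258%. With CLI they were 47.9 ± 0.876% and 6.47 ± 0.0258%. ADAMTS1 made up 7.80 ± 0.776% of the summed ADAMTS level in control cells and 0.345 ± 0.227% in ERβ1 cells. These sums rest on chosen members and on annotated exon lengths, and carry no test.

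**Figure D4:**
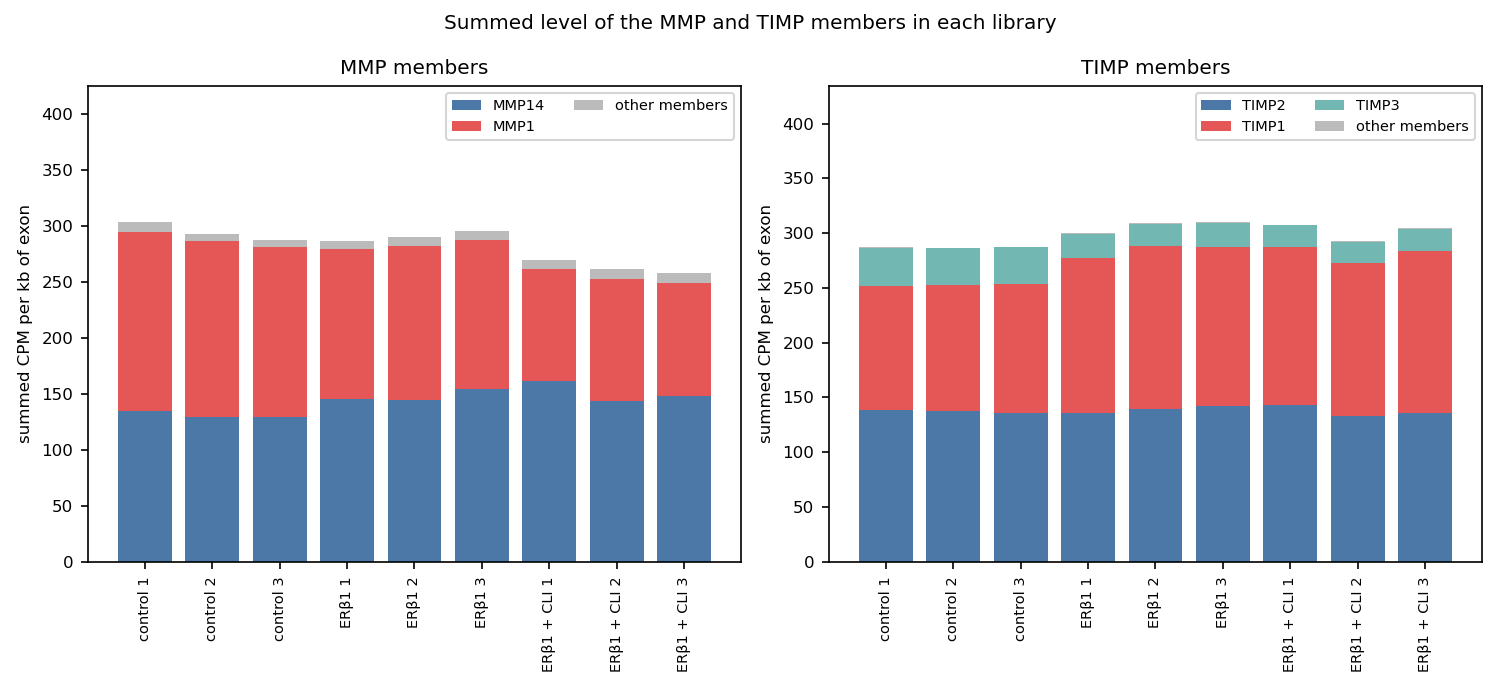
Summed level of the 15 MMP members (left) and 4 TIMP members (right) in each of the 9 libraries, in CPM per kilobase of annotated exon, stacked by gene from 0. The MMP1 segment is the larger one in the controls and the MMP14 segment the larger one with CLI, while the TIMP3 segment is smaller in all receptor libraries than in the controls.

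Promoters are shown for ADAM12, TIMP1 and TIMP3, members of clear but opposite changes. They are windows around the annotated gene starts in RefSeq (GRCh38.p14), written 5′ to 3′ on the strand of the gene, at chr10:126388428-126388727 (minus), chrX:47582186-47582485 (plus) and chr22:32801455-32801754 (plus). The capitals mark all matches of the motifs searched, and here each of them is a GC box.
ADAM12: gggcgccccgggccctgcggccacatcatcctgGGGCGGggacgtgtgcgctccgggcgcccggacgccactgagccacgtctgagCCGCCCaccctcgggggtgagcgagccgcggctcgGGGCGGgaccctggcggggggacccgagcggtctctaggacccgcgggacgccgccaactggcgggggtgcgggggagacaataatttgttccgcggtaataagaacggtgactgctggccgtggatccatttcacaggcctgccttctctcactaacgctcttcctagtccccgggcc
TIMP1: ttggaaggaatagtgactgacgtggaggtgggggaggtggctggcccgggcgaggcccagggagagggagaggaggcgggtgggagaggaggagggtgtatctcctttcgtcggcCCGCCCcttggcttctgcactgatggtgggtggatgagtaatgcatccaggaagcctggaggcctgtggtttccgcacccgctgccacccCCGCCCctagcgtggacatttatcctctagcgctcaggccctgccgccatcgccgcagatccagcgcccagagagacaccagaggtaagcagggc
TIMP3: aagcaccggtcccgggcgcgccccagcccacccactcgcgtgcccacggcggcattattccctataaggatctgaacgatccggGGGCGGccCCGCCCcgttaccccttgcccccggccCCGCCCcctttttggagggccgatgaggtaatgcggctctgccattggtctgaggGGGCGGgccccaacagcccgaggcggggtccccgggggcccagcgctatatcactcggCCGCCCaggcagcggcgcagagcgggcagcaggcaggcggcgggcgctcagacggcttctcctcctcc
ADAM12 held 3 GC boxes, TIMP1 2 and TIMP3 5. The search covered the 30 members with a promoter entry. MMP1, MMP3 and ADAMTS1 were among the members without one, so the counts below say nothing about their promoters. The motifs, sought on both strands, were the GC box GGGCGG, the TATA box TATAAA, the AP-1 site TGANTCA, the oestrogen receptor half-site GGTCA and the full oestrogen response element. The full element was taken as GGTCA, any 3 bases and the reverse complement of GGTCA, so it contains the half-site. A GC box was in 25 of 30 member promoters and in 45% of all 35116 promoters. The half-site was in 10 of 30 and 37.4% of all, and the full element in 0 of 30 and 0.057% of all. TATAAA was in 2 of 30 and 11.5% of all, and the AP-1 site in 1, ADAMTS12, and 7.71% of all. A match is a string of letters and not a bound site.

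Genes around the enzymes were read from 4 lists. Of 17 tested activators, carriers and inhibitors other than TIMPs, 5 rose and 2 fell in ERβ1 cells, beside 10.7% of all genes in either direction. With CLI against control 7 rose and 2 fell, beside 13.3% and 13.1% of all genes. TSPAN15, a tetraspanin that carries ADAM10 to the cell surface, rose from 9.88 ± 2.46 to 18.3 ± 0.0290 CPM (log2 0.89 ± 0.14, edgeR adjusted p = 0.00277) and reached 29.4 ± 1.42 with CLI (edgeR adjusted p = 8.38e-05 against control). Of its relatives with the same role, TSPAN5 rose by 0.27 log2 units (edgeR adjusted p = 0.00147) and TSPAN14 fell by 0.20 (edgeR adjusted p = 0.00715). SPOCK1, a secreted proteoglycan called testican-1, fell from 3.02 ± 0.354 to 0.0414 ± 0.0148 CPM (log2 -6.06 ± 0.35, edgeR adjusted p = 8.74e-06). At the CLI step none of the 17 was called, TSPAN15 included (0.68 ± 0.14, edgeR adjusted p = 0.0540).

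Of 26 tested membrane proteins that ADAMs shed, 9 rose and 5 fell in ERβ1 cells, and 9 rose and 6 fell with CLI against control, where 21.4% and 26.5% of all genes were called. TNFRSF1B, a TNF receptor, rose from 20.7 ± 1.15 to 35.5 ± 1.94 CPM (edgeR adjusted p = 4.46e-05), and TGFA, a ligand of the EGF receptor, from 75.0 ± 3.35 to 98.6 ± 1.60 (edgeR adjusted p = 2.03e-04). ALCAM, an adhesion protein, fell from 403 ± 8.80 to 316 ± 5.44 CPM (edgeR adjusted p = 2.03e-04), and AXL, a receptor kinase also listed as a marker of MDA-MB-231, from 2229.5 ± 57.2 to 1871 ± 46.9 (edgeR adjusted p = 3.08e-04). At the CLI step, where 1.47% of all genes were called, 1 of the 26 rose and 1 fell: SDC4, a syndecan, rose by 0.19 on the log2 scale and HBEGF fell by 0.23 (edgeR adjusted p = 0.0299 and 0.0449). Neither call held with the replicate block, where the edgeR adjusted p was 0.0865 for SDC4 and 0.100 for HBEGF. Both were lost as well without any one of the 6 libraries compared, and SDC4 without control replicate 2 and HBEGF without any control library (edgeR adjusted p = 0.0585 to 0.119 for SDC4 and 0.0575 to 0.158 for HBEGF).

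Of 14 tested matrix proteins that the families cut, 7 rose and 1 fell in ERβ1 cells, beside 10.7% of all genes in either direction, and 6 rose and 1 fell with CLI against control, beside 13.3% and 13.1%. The 1 that fell in ERβ1 cells, named after its values were seen, was HSPG2, the basement membrane proteoglycan perlecan, which went from 410.3 ± 32.8 to 293 ± 33.7 CPM (edgeR adjusted p = 0.0109). FN1, fibronectin, rose from 506 ± 32 to 673 ± 35.7 CPM (edgeR adjusted p = 7.33e-04). FBN1, fibrillin-1, rose from 40.1 ± 2.06 to 60.0 ± 4.59 CPM (edgeR adjusted p = 0.00270). LUM, lumican, also listed as a fibroblast marker, rose from 0.0453 ± 0.0214 to 0.311 ± 0.0713 CPM (edgeR adjusted p = 0.00227). At the CLI step THBS1, thrombospondin-1, rose by 0.25 log2 units (edgeR adjusted p = 0.00394), a call lost under the replicate block with only the 6 libraries compared (edgeR adjusted p = 0.0590). TNC, tenascin-C, and LAMB3, a laminin chain, fell by 0.60 and 0.15 (edgeR adjusted p = 0.0276 and 0.0485). Both of these calls were lost with the replicate block (edgeR adjusted p = 0.0871 and 0.0884). The TNC call was also lost without control replicate 1, any one ERβ1 library or CLI replicate 1 or 2 (edgeR adjusted p = 0.0504 to 0.101), and that of LAMB3 without any one of the 9 libraries (edgeR adjusted p = 0.0584 to 0.138).

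Of 6 tested metalloproteases outside these families, BMP1, TLL1 and PAPPA2 rose in ERβ1 cells and with CLI against control, where 10.7% and 13.3% of all genes rose, and none was called at the CLI step. BMP1, a procollagen C-proteinase, went from 27.7 ± 3.83 to 46.5 ± 3.70 CPM (log2 0.74 ± 0.11, edgeR adjusted p = 0.00141) and was at 51.3 ± 4.33 with CLI. TLL1, its relative, went from 0.0764 ± 0.0591 to 0.772 ± 0.401 CPM (edgeR adjusted p = 0.00443). With CLI TLL1 was at 0.426 ± 0.0628 CPM (edgeR adjusted p = 0.0160 against control, and 0.0578 without control replicate 1). PAPPA2, which cuts IGF-binding proteins, went from 15.6 ± 0.620 to 23.3 ± 4.33 CPM (edgeR adjusted p = 0.00730).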

How the data were processed

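Messenger RNA was sequenced from 9 libraries, 3 in each of 3 groups. The authors deposited estimated counts per gene, made with Salmon 1.2.1 after Trimmomatic 0.38 per the submitters' processing notes, which name GRCh38; its settings, annotation release and strand mode are not stated there. The authors also deposited log2 CPM scaled by TMM, which served to choose the members and for 1 alternative. The members, lists and tests were chosen with earlier results of these data known.

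Estimated counts were rounded to whole numbers. Genes were kept by edgeR's filter by expression, leaving 17058, scaled by TMM and tested with edgeR 4.0.16 (R 4.3.3) in a quasi-likelihood fit over all 9 libraries, with p-values adjusted over all genes tested by Benjamini-Hochberg and called under 0.05. The fit was checked on simulated counts with changes of at least 2-fold and the same spread for all genes. That check does not cover smaller changes, scarce genes or libraries that stand apart from their group. CPM values are TMM-scaled, and the per-kilobase values use the joined length of all exons of a gene in GENCODE release 29. Named in full were the TIMPs, every member called in any comparison, and the 3 highest members not called in each of the other families; of each companion list, at most 4 called genes with the smallest adjusted p in a comparison, except 1 gene that is not reported here. Alternatives were other scalings and filters, DESeq2 1.42.0, limma 3.58.1 on the deposited log2 values, fits of only the libraries compared, a replicate block, and each library left out.

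The replicate numbers come from the column names. Over 12574 genes, the deviations of CLI-treated and untreated ERβ1 libraries from their group means correlated by 0.158, 0.441 and 0.183 for the pairs numbered 1, 2 and 3, and over 13708 genes with a lower minimum by 0.0995, 0.371 and 0.0992. On the first set the numbers were taken to pair these 2 groups, since each pair passed 0.1, and by the same measure not the receptor groups with the controls. Numbers 1 and 3 correlated about as much across numbers, by 0.178 and 0.161 on the first set and by 0.137 and 0.142 on the second. Only the libraries numbered 2 matched their own number best on both sets. Those numbered 3 did so on the first set alone, by 0.183 against 0.178 and 0.161.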

Additional observations from a re-analysis of the deposited data

How the results depend on the processing

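Of the members called in ERβ1 against control, 15 of 20 kept their call and direction under all alternatives in which they were tested. In CLI-treated cells against control 19 of 25 did so, and at the CLI step 1 of 3, MMP1. Some alternatives did not test every one of these, since their filters dropped scarce members. This held for MMP12 and ADAMTSL3 in both comparisons with control, and for MMP9 in ERβ1 cells. At the CLI step 251 genes were called, against 641 with DESeq2, 158 with only the 6 libraries compared and 72 without the libraries numbered 2, and 114 to 211 with 1 library left out; the lowest count was without CLI replicate 3, and leaving out any receptor library gave 153 or fewer. Members called there numbered 3, against 6 with DESeq2 and 1 without the libraries numbered 2, a choice made after the data were seen. Members called in the other comparisons ranged from 16 to 23 and from 20 to 26. With the replicate block the CLI step called 136 genes, or 66 with only the 6 libraries compared, which leaves few degrees of freedom; the changed member calls stand beside their results. Against control, where the numbers did not pair the samples, the block called 20 members in ERβ1 cells and 24 with CLI. The values that changed sign were not called with all libraries. With 1 library left out, log2 values at the CLI step ran as follows: ADAM15 -0.0421 to 0.0413, ADAM9 -0.00139 to 0.0507, ADAMTS1 -0.53 to 0.37, ADAMTS12 -0.00448 to 0.0488, ADAMTS16 -0.13 to 0.41, MMP14 -0.0256 to 0.0608, MMP16 -0.19 to 0.11, TIMP1 -0.0274 to 0.0116. For ERβ1 against control they were ADAMTS16 -0.65 to 0.0448, MMP19 -0.84 to 0.49, and for CLI-treated cells against control ADAMTS13 -0.86 to 0.92, ADAMTS16 -0.50 to 0.17, ADAMTS17 -0.13 to 0.0624, ADAMTSL4 -0.0248 to 0.0828, MMP19 -0.92 to 0.40, TIMP2 -0.0292 to 0.0221. TIMP1 at the CLI step was 0.0311 without the libraries numbered 2. Against control with CLI, ADAMTS17 was 0.00613 with upper quartile scaling and 0.00105 with a filter at 1 CPM, and TIMP2 was 0.0160, 0.0125 and, without the libraries numbered 2, 0.0182. The cause was not tested. MMP12 and MMP25 rest on few counts, which widens their counting error, and ADAM23 differed widely between the control libraries.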
